A study of Rattus norvegicus with 54 samples.

Results

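Lungs of 6-week-old rats conceived, born and raised at simulated altitude, named H-H, were compared with lungs of rats kept throughout in room air, named RA-RA. Of the 29 lung libraries among the 54 libraries of the study, 25 were analysed, 12 H-H and 13 RA-RA. The libraries left out were the H-H animals 4HH37 (mixed tissue) and 4HH39 and the RA-RA animals 6RARA66 and 6RARA68 (outlying libraries). All animals were Sprague Dawley, an outbred laboratory strain, and the labels give no genetic modification or drug. The H-H parents entered a chamber depressurized to 9000 feet, which corresponds to 15% inspired oxygen, at 7 weeks of age. They were bred there at 10 weeks, and their pups were weaned at day 21 and stayed in hypobaric hypoxia. RA-RA animals went through the same schedule in room air. Each treatment held 2 litters: for H-H these were 3HH (8 lungs) and 4HH (4 lungs), for RA-RA 4RARA (8 lungs) and 6RARA (5 lungs). Litter is thus nested in treatment, so the exposure and a difference between families cannot be told apart from the pooled groups alone, and the mean of each litter is given beside the results. Males made up 6 of 12 H-H and 7 of 13 RA-RA lungs. The hour of the day at which the animals were killed was not given in the sources used here.

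The lung meets low oxygen pressure directly. As background, hypoxia stabilizes the HIF transcription factors, which induce genes of glycolysis, iron handling and vessel growth, and in rats chronic hypoxia constricts and remodels the pulmonary arteries. The alveolar wall is mostly capillary endothelium and thin epithelium, and the lung also holds airway epithelium, smooth muscle, fibroblasts and many resident immune cells. Tissue homogenates measure all of these at once, so fewer cells of a type and less RNA per cell cannot be told apart. The question of the comparison is which lung genes differ after development at altitude.

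Libraries held 9707031 to 23902634 counts in H-H lungs and 14316449 to 21869603 counts in RA-RA lungs. RNA integrity numbers ran from 8.4 to 10.0 in H-H lungs and from 7.4 to 10.0 in RA-RA lungs. The run information of the submitters gives each library a number headed Batch #, called batch here, and it was spread unevenly. That header does not say which step the number stands for. Batch 1 held 6 H-H and 3 RA-RA lungs, batch 2 held 5 of each, and batch 3 held 1 H-H and 5 RA-RA lungs. In batch 1, 2 H-H and 3 RA-RA lungs were marked as re-prepared. The run information marks the lung and right ventricle entries of animal 3HH28, the H-H lung of batch 3, as swapped, so its batch and integrity number are uncertain. Intergenic reads made up 19.6 to 26.3% in 3HH and 17.4 to 18.8% in 4HH, against 18.4 to 20.8% in 4RARA and 21.3 to 24.5% in 6RARA. Defining lung genes were high in every library: Sftpc, a surfactant protein of alveolar type 2 cells, lay at 11470 to 17240 CPM (counts scaled to a common library total) in H-H lungs and 11510 to 18140 CPM in RA-RA lungs. Ager, of alveolar type 1 cells, lay at 2512 to 3442 CPM in H-H lungs and 2111 to 3631 CPM in RA-RA lungs.

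Of 12112 genes tested, 449 were called at an adjusted p under 0.05 (3.71%) in edgeR's quasi-likelihood test with treatment and sex, 207 higher (1.71%) and 242 lower (2.00%) in H-H lungs. Where a value with ± stands beside an adjusted p without another unit, it is this test's log2 fold change, H-H over RA-RA, with its SE. The median absolute log2 fold change over all genes was 0.115, 240 called genes differed by at least 1.5-fold, and 78 by at least 2-fold (34 higher and 44 lower). To use the litter means, each H-H litter was set against each RA-RA litter, which gives 4 litter pairs. The 4 pairs had one sign for 431 of the 449 called genes (96.0%), against 29.1% of all genes tested. The pairs come from the same libraries that gave the calls. Called genes are therefore likely to share a sign, and the higher share is no separate evidence. In 94 called genes (0.776% of those tested) every pair exceeded 1.5-fold in the same direction, 43 higher (0.355%) and 51 lower (0.421%). In 10 genes (0.0826%) the libraries of the groups did not overlap: Ffar3, Fam181b and Slc26a10 were higher in every H-H lung, and Adra2a, Col6a4, Cyp1a1, Espn, Slc6a4, Sox9 and Tmem150c were lower in every H-H lung.

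The calls rest on how littermates are counted. With litter as a random effect in limma voom, which estimated a correlation of 0.247 within litters, 12 genes were called: Ntrk2, Ffar3, Fam181b, Slc26a10, Resp18 and Gpihbp1 were higher, and Col6a4, Cyp1a1, Adra2a, Spib, Tmem150c and Espn were lower. With counts summed over each litter, 2 samples against 2, no gene was called in edgeR, and 434 genes had an unadjusted p under 0.05. The number of calls was 312 (129 higher) with batch as a covariate, 2 within batch 1 and 7 within batch 2, where 1343 and 706 genes had an unadjusted p under 0.05. Within batch 3 the sex term left 3HH28 set against 6RARA65, the only RA-RA female there, so that fit compared 1 lung with 1. Batch 3 values given below come instead from a fit without the sex term, chosen after seeing the data, which set 3HH28 against all 5 RA-RA lungs of the batch and called 2 genes. With all 29 lung libraries it was 242. A total of 76 genes, 38 in each direction, were also called in each of the 4 fits that left out 1 litter, and 43 of them were beyond 1.5-fold in every litter pair. Leaving out 3HH gave 343 higher and 112 lower calls, 4HH 266 and 245, 4RARA 1005 and 882, and 6RARA 232 and 270. The genes tested in these fits numbered 12356, 12219, 12294 and 12176. Counts per list given below for the same fits move with these totals as well as with the list.

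**Figure D1:**
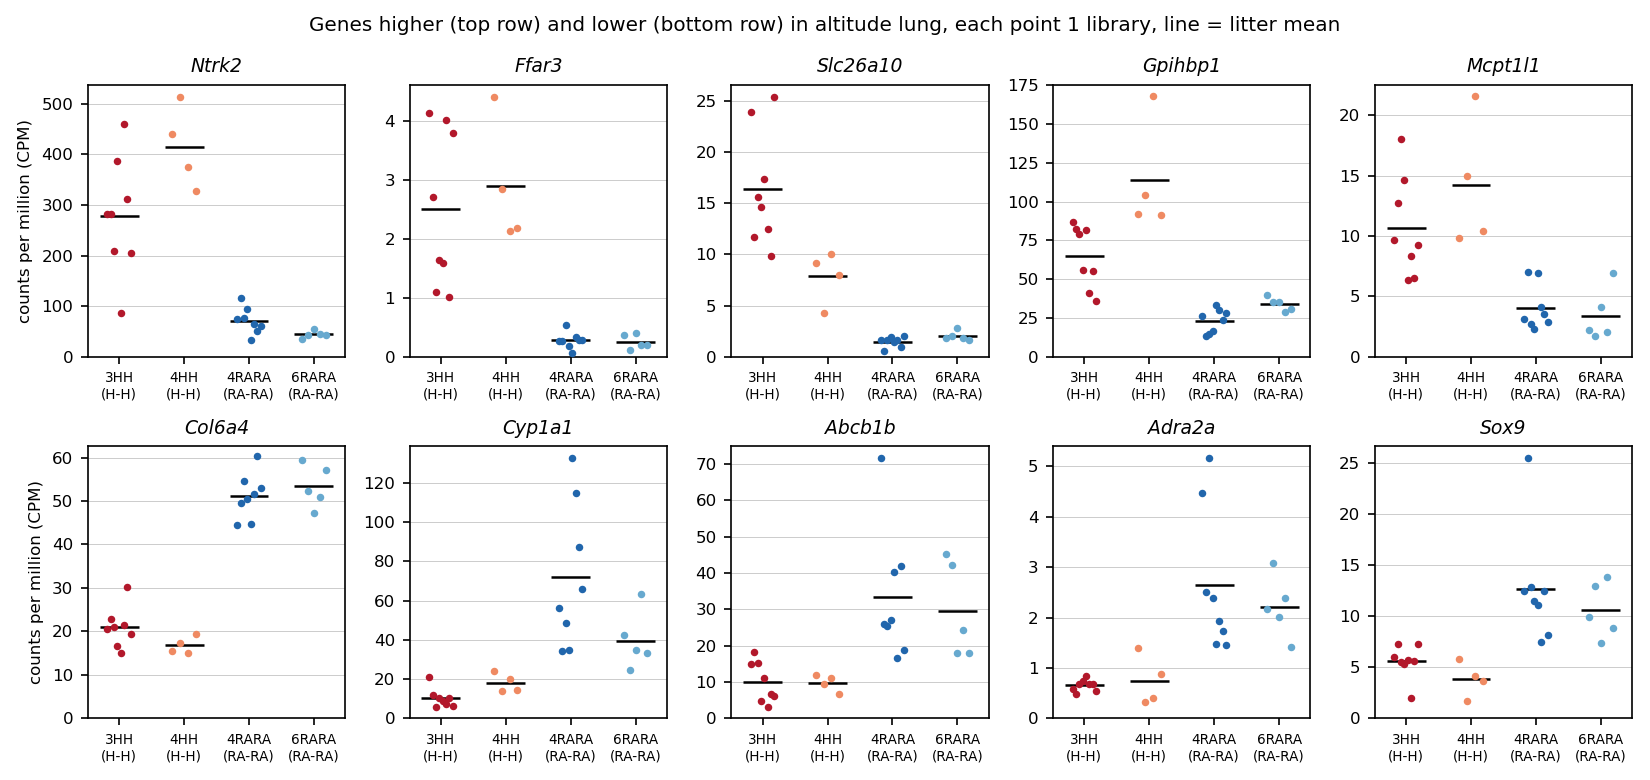
Levels in CPM of 10 genes in the 25 lung libraries by litter, with H-H litters in red shades and RA-RA litters in blue shades; each point is 1 library and the line is the litter mean. The H-H points of Ffar3 and Slc26a10 lie above all RA-RA points, and those of Col6a4, Cyp1a1, Adra2a and Sox9 lie below them.

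Ranked by the smallest of the 4 litter pairs, Ffar3, Fam181b, Ntrk2 and Slc26a10 had the largest rises. Genes described here were picked by the size of their change, so their sizes describe them and are no further evidence. Ffar3, a receptor of short-chain fatty acids, had 1.02, 2.44 and 4.39 CPM in H-H lungs (lowest, median and highest), against 0.0591, 0.267 and 0.538 CPM in RA-RA lungs. Every H-H lung exceeded every RA-RA lung, and the litter means were 2.497 CPM in 3HH and 2.89 CPM in 4HH, against 0.277 CPM in 4RARA and 0.258 CPM in 6RARA. The log2 fold change was 3.25 ± 0.28 (SE, adjusted p = 2.5e-08), and it was 3.42 in batch 1, 2.81 in batch 2 and 3.94 in batch 3. Its neighbour in function Ffar2, which binds the same ligands and was looked up after the values were seen, gave −0.03 ± 0.16 (adjusted p = 0.952).

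Ntrk2, whose product is the TrkB receptor for the neurotrophin BDNF, was the most abundant of the 15 genes with the largest rises, at 86.01, 320.0 and 514 CPM in H-H lungs (lowest, median and highest), against 33.7, 54.3 and 116 CPM in RA-RA lungs. In 11 of 12 H-H lungs it exceeded every RA-RA lung. The litter means were 278 CPM in 3HH and 414 CPM in 4HH, against 71.4 CPM in 4RARA and 44.2 CPM in 6RARA, and the log2 fold change was 2.41 ± 0.22 (SE, adjusted p = 4.25e-08). Within batches it was 2.58 in batch 1, 2.15 in batch 2 and 3.26 in batch 3. The gene lies in rn6 on chromosome 17, 5934690 to 6244627. Of the 7 neurotrophin genes tested, Ntrk2 alone passed the test. The ligand gene Bdnf averaged 26.9 ± 5.41 CPM in H-H lungs and 28.1 ± 6.03 CPM in RA-RA lungs (SD, n = 12 and 13), the related receptor gene Ntrk3 gave 0.22 ± 0.14 (adjusted p = 0.406), and the low-affinity receptor gene Ngfr gave −0.49 ± 0.21 (adjusted p = 0.193).

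Slc26a10, of the SLC26 anion transporter family, had 4.28, 12.1 and 25.4 CPM in H-H lungs (lowest, median and highest), against 0.573, 1.69 and 2.81 CPM in RA-RA lungs, without overlap. Its litter means were 16.4 CPM in 3HH and 7.87 CPM in 4HH, against 1.49 CPM in 4RARA and 2.06 CPM in 6RARA, so 3HH stood above 4HH (adjusted p = 0.0196 between these litters). The log2 fold change was 2.97 ± 0.23 (SE, adjusted p = 4.25e-09), with 2.94 in batch 1, 2.83 in batch 2 and 2.81 in batch 3, and the gene lies on chromosome 7, 70459532 to 70467453. Fam181b rose by 3.06 on the log2 scale (adjusted p = 4.25e-08), at 1.27 to 4.92 CPM in H-H lungs (median 2.63), against 0.0692 to 0.762 CPM in RA-RA lungs (median 0.292). Resp18, an endocrine secretory granule protein, rose by 1.79 (adjusted p = 1.38e-05), with litter means of 2.63 CPM in 3HH and 4.31 CPM in 4HH, against 0.794 CPM in 4RARA and 1.14 CPM in 6RARA.

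All 15 genes with the largest rises, and all 15 with the largest falls, were called in each of the 25 fits that left out 1 library. Dbp, Per3 and Per2 belong to the clock and Gpihbp1 to the capillaries, and they are described there. Mcpt1l1, a mast cell protease, had litter means of 10.7 CPM in 3HH and 14.2 CPM in 4HH, against 4.08 CPM in 4RARA and 3.399 CPM in 6RARA (1.65 ± 0.23, SE, adjusted p = 7.97e-05). Tcap, a protein of the muscle Z-disc, rose by 1.80 (adjusted p = 0.000499). Tulp2, of the tubby-like family, rose by 1.51, and Wfdc10, of the WAP domain family, rose by 1.46 (adjusted p = 0.0002 and 0.00134). Fez1, an adaptor of axon growth, rose by 1.12 and Chodl, a membrane protein with a lectin domain, by 0.97 (adjusted p = 0.00288 and 0.0154). Fez1, Gpihbp1 and Chodl gave −0.37, 0.35 and 0.39 within batch 3, which rests on 1 H-H lung, and Chodl had an adjusted p of 0.0581 with batch as a covariate.

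Among the falls, Col6a4, a collagen VI chain, had the lowest adjusted p of all genes tested. It lay at 14.99, 19.4 and 30.2 CPM in H-H lungs (lowest, median and highest), against 44.5, 51.7 and 60.4 CPM in RA-RA lungs. The highest H-H lung was below the lowest RA-RA lung, and the litter means were 20.9 CPM in 3HH and 16.8 CPM in 4HH, against 51.1 CPM in 4RARA and 53.5 CPM in 6RARA. The log2 fold change was −1.41 ± 0.10 (SE, adjusted p = 2.85e-10), with −1.56 in batch 1, −1.27 in batch 2 and −1.27 in batch 3, and the gene lies on chromosome 8, 114670628 to 114766803. The other 12 collagen genes tested did not pass: Col6a2, another collagen VI chain, gave −0.16 ± 0.12 (adjusted p = 0.516) and Col1a1, of fibrillar collagen I, 0.11 ± 0.16 (adjusted p = 0.75).

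Cyp1a1, the cytochrome P450 that is induced through the aryl hydrocarbon receptor, had 5.95, 11.2 and 24.1 CPM in H-H lungs (lowest, median and highest), against 24.7, 48.6 and 132 CPM in RA-RA lungs, without overlap. Its litter means were 10.2 CPM in 3HH and 18.1 CPM in 4HH, against 71.9 CPM in 4RARA and 39.6 CPM in 6RARA, and the RA-RA litters also differed from each other (adjusted p = 0.0198). The log2 fold change was −2.13 ± 0.25 (SE, adjusted p = 6.7e-06), with −1.58 in batch 1, −1.89 in batch 2 and −3.55 in batch 3, and the gene lies on chromosome 8, 62472087 to 62478117. Cyp1a1 was the only one to pass of the 6 tested genes listed for that receptor, which include the receptor gene. Unadjusted p was under 0.05 for 3 of the 6. Cyp1b1 gave −0.14 ± 0.18 (adjusted p = 0.7297), Nqo1 −0.34 ± 0.12 (adjusted p = 0.109) and the receptor gene Ahr itself −0.35 ± 0.13 (adjusted p = 0.119).

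Abcb1b, one of the rodent genes for P-glycoprotein, which pumps drugs and lipids out of cells, had 3.11, 10.2 and 18.3 CPM in H-H lungs (lowest, median and highest), against 16.5, 25.9 and 71.5 CPM in RA-RA lungs. In 11 of 12 H-H lungs it was below every RA-RA lung (−1.70 ± 0.27, SE, adjusted p = 0.000454). Its paralog Abcb1a, looked up after the values were seen, gave −0.09 ± 0.20 (adjusted p = 0.851). Reads of such close copies may have been divided between them by the counting.

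Adrenergic receptor genes were among the falls. Adra2a, the alpha-2A receptor, had 0.315, 0.676 and 1.39 CPM in H-H lungs (lowest, median and highest), against 1.42, 2.18 and 5.16 CPM in RA-RA lungs, without overlap (−1.80 ± 0.22, SE, adjusted p = 1.31e-05), and Adra1d, the alpha-1D receptor, had litter means of 1.998 CPM in 3HH and 1.65 CPM in 4HH, against 3.73 CPM in 4RARA and 6.45 CPM in 6RARA (−1.32 ± 0.24, SE, adjusted p = 0.00165). Other adrenergic receptor genes were looked up after these values were seen. Adra1a, Adra1b, Adra2b and Adrb1 did not pass, with log2 fold changes of −0.32, −0.21, −0.70 and −0.12 (adjusted p = 0.456, 0.437, 0.0855 and 0.757). Ucn3, the peptide urocortin 3, fell by 2.93 on the log2 scale (adjusted p = 0.0247), but it ranged from 0.119 to 31.5 CPM within RA-RA lungs. Crhr2, the receptor that urocortin 3 binds, is too low for the naming rule and was looked up afterwards: it rose by 1.48 (adjusted p = 0.00203), with litter means of 1.17 CPM in 3HH and 0.877 CPM in 4HH, against 0.418 CPM in 4RARA and 0.304 CPM in 6RARA. Tacr1, the receptor of substance P, was likewise looked up afterwards and fell, with −1.78 ± 0.37 (SE, adjusted p = 0.00528).

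Other falls named by the rule were in epithelial, developmental and immune genes. Sox9, a transcription factor of cartilage and of airway progenitors, had 1.701, 5.57 and 7.29 CPM in H-H lungs (lowest, median and highest), against 7.37, 11.5 and 25.5 CPM in RA-RA lungs, without overlap (−1.25 ± 0.22, SE, adjusted p = 0.00109). Of 3 cartilage genes tested Sox9 alone passed, and all 3 had an unadjusted p under 0.05. Median levels in H-H and RA-RA lungs were 6.82 and 10.4 CPM for Col11a2, and 1.43 and 1.04 CPM for Comp. The part of sampled cartilage in these values was not tested. Bpifb1, secreted by airway glands, had litter means of 14.2 CPM in 3HH and 15.7 CPM in 4HH, against 38.95 CPM in 4RARA and 55.2 CPM in 6RARA (−1.64 ± 0.34, SE, adjusted p = 0.00545). Dlk1, a non-canonical Notch ligand of developing tissue, gave −1.28 ± 0.24, and Htra4, a serine protease, −1.32 ± 0.18 (adjusted p = 0.00221 and 5.83e-05). Dpp6, an accessory subunit of potassium channels, gave −1.41 ± 0.20 and Pde6h, a phosphodiesterase subunit, −1.13 ± 0.28 (adjusted p = 0.000107 and 0.0192). The B cell scaffold gene Bank1 gave −1.11 ± 0.17 (adjusted p = 0.000305), and the MHC class I gene RT1-T24-3 gave −1.02 ± 0.20 (adjusted p = 0.00409). RT1 genes are close copies of each other and differ between strains, so values of single RT1 genes are uncertain.

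**Figure D2:**
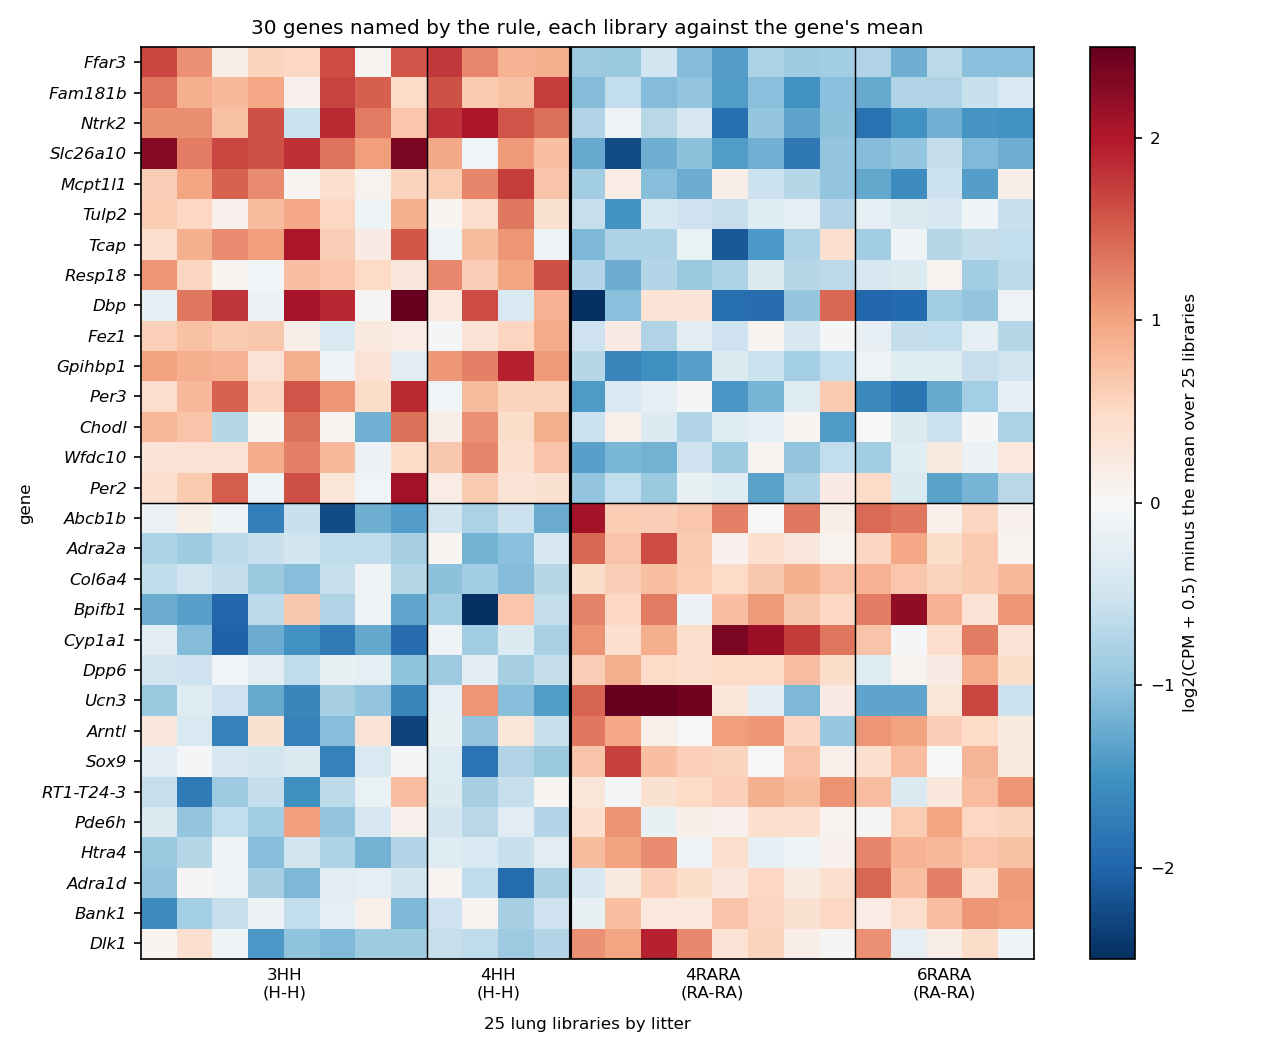
Heat map of the 15 genes with the largest rises and the 15 with the largest falls (rows) in the 25 lung libraries (columns, by litter), coloured by log2(CPM + 0.5) minus the gene's mean over the libraries, red above and blue below. Most cells of the H-H litters are red in the upper 15 rows and blue in the lower 15, with exceptions in single libraries, among them in Dbp, Chodl, Bpifb1, Ucn3 and Arntl.

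Genes of the circadian clock moved in both directions. As background, BMAL1 (gene Arntl) with CLOCK or NPAS2 switches on Per, Cry, Nr1d, Ciart and the output factors Dbp and Tef. PER and CRY proteins and CIART then hold BMAL1 and CLOCK down, NR1D proteins repress Arntl, and DBP and TEF activate genes with a D-box, so that Arntl and the Per genes oscillate over the day in opposite phase. Of 11 tested genes of the repressing arm and outputs, 7 rose and none fell, against 1.71% higher over all genes. Their median log2 fold change was 0.88, against −0.00185 over all genes tested, and the medians of the 4 litter pairs ran from 0.45 to 1.49. A second list held the activator genes Arntl, Clock and Npas2 and Nfil3, a D-box repressor whose rhythm runs opposite to that of Dbp. Of these 4, Arntl, Npas2 and Nfil3 fell and none rose, against 2.00% lower over all genes, with a median of −0.97 and litter pair medians of −1.06 to −0.76.

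Per3 lay at 48.3, 82.7 and 186 CPM in H-H lungs (lowest, median and highest), against 13.9, 28.2 and 80.4 CPM in RA-RA lungs, with 6 H-H lungs above every RA-RA lung. Per2 lay at 42.9, 60.8 and 199 CPM in H-H lungs (lowest, median and highest), against 17.8, 28.2 and 64.1 CPM in RA-RA lungs, with 5 H-H lungs above every RA-RA lung. Dbp lay at 29.2, 83.2 and 302 CPM in H-H lungs (lowest, median and highest), against 6.399, 19.2 and 104 CPM in RA-RA lungs. The groups overlapped in all of them, and single libraries of both groups spread widely. Log2 fold changes were 1.57 ± 0.26 for Per3, 1.36 ± 0.25 for Per2, 1.88 ± 0.44 for Dbp, 1.58 ± 0.36 for Ciart, 0.88 ± 0.24 for Nr1d2, 0.82 ± 0.17 for Tef and 0.37 ± 0.10 for Cry2 (SE). Their adjusted p values were 0.000499, 0.00228, 0.0141, 0.0111, 0.0387, 0.00528 and 0.0403. Nr1d1 and Per1 did not pass, at 1.11 ± 0.34 (adjusted p = 0.0653) and 0.87 ± 0.30 (adjusted p = 0.0997).

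Arntl lay at 5.33, 20.6 and 37.6 CPM in H-H lungs (lowest, median and highest), against 14.6, 44.2 and 72.1 CPM in RA-RA lungs, with litter means of 20.8 CPM in 3HH and 23.5 CPM in 4HH, against 45.7 CPM in 4RARA and 47.8 CPM in 6RARA. It gave −1.10 ± 0.28, Npas2 −1.01 ± 0.28 and Nfil3 −0.94 ± 0.20 (SE, adjusted p = 0.0229, 0.0349 and 0.00634). Clock, the partner gene of Arntl, gave −0.07 ± 0.09 (adjusted p = 0.724). In the repressing arm 3HH had the highest mean of Per3, Per2, Dbp, Ciart, Nr1d2, Tef and Cry2, and 4HH was next in each. The counts moved with the litters, as did the calls over all genes. Called genes of the repressing arm numbered 1 when 3HH was left out, 7 when 4HH was, 8 when 4RARA was and 3 when 6RARA was, and those among the activators and Nfil3 1 when 3HH was left out, 2 when 4HH was, 3 when 4RARA was and 1 when 6RARA was. Within batches the median of the repressing arm was 1.56 in batch 1, 0.80 in batch 2 and 0.84 in batch 3. As background, these genes swing with the hour of the day in lung, and the hour at which each litter was killed was not given in the sources used here. Without 3HH28, whose batch is uncertain, 5 genes of the repressing arm rose and 2 of the activators and Nfil3 fell.

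Promoter windows of clock genes, 250 bases before to 50 after the gene start, are shown because the called members moved together and the motifs by which the clock acts on itself are short and defined. Windows are from RefSeq, build GRCr8, which held 18 windows for 16 of the 19 listed clock genes; motifs are in capitals. Ciart and Tef are shown for the E-box CACGTG, bound by BMAL1 with CLOCK, Per2 for the D-box TTATGNAA, bound by DBP, TEF and NFIL3, and Nr1d2 for AGGTCA, the core hexamer bound by NR1D and ROR receptors.
Ciart (chr2:186112197-186112496, minus strand): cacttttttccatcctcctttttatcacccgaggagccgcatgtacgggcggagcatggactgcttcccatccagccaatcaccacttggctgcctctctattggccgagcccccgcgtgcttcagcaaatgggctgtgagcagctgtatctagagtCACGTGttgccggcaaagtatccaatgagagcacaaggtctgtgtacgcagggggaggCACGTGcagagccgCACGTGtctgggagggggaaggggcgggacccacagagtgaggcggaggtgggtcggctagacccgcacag
Tef (chr7:115206577-115206876, plus strand): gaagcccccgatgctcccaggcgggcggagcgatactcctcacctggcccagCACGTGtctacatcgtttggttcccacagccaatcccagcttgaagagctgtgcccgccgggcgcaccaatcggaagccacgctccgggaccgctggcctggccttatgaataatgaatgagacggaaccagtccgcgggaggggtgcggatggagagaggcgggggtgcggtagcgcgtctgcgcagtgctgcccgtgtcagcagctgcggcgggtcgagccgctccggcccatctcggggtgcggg
Per2 (chr9:99496944-99497243, minus strand): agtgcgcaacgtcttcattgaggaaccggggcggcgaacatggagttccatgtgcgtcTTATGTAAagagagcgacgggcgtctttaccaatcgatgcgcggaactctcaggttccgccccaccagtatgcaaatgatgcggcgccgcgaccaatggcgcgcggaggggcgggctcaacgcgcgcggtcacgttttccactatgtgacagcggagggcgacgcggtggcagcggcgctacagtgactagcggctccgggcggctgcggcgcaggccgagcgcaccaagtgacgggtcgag
Nr1d2 (chr15:9954784-9955083, plus strand): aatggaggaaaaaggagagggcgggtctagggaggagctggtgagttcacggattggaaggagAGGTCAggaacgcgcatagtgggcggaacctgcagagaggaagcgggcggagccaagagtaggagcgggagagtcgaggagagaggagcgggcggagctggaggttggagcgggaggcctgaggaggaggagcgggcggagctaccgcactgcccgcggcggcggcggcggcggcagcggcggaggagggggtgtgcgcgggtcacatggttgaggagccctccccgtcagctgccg
The Ciart window held 3 E-boxes, starting 93, 35 and 21 bases before the gene start, and the Tef window held 1, starting 198 bases before it. Both strands were searched. CACGTG was in 5 of the 18 clock windows (27.8%), against 6.42% of all 33469 promoter windows and 8.79% of those of tested genes. The windows with it were those of Ciart, Tef, Bhlhe40 and Bhlhe41 and 1 window of Nr1d1. Of these genes only Ciart and Tef were called, and Bhlhe41 was not tested. Per2, Per3, Dbp, Nr1d2 and Cry2, also called higher, had 0 CACGTG in their windows. It was in 9.94% of windows of genes called higher and 7.10% of windows of genes called lower. ACGTG, one form of the core that HIF binds, overlaps CACGTG and was in 22.4% of windows of genes called higher and 18.9% of those called lower, against 24.7% for tested genes. In the clock windows ACGTG was in 9 of 18, against 19.3% of all windows. TTATGNAA was in 1 of the 18 clock windows, against 3.66% of all windows and 1.88% of those of tested genes, and AGGTCA in 2 of them, against 16.2% and 11.9%. The windows with AGGTCA were those of Nr1d2, called higher, and Arntl, called lower. A match describes letters and not binding.

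**Figure D3:**
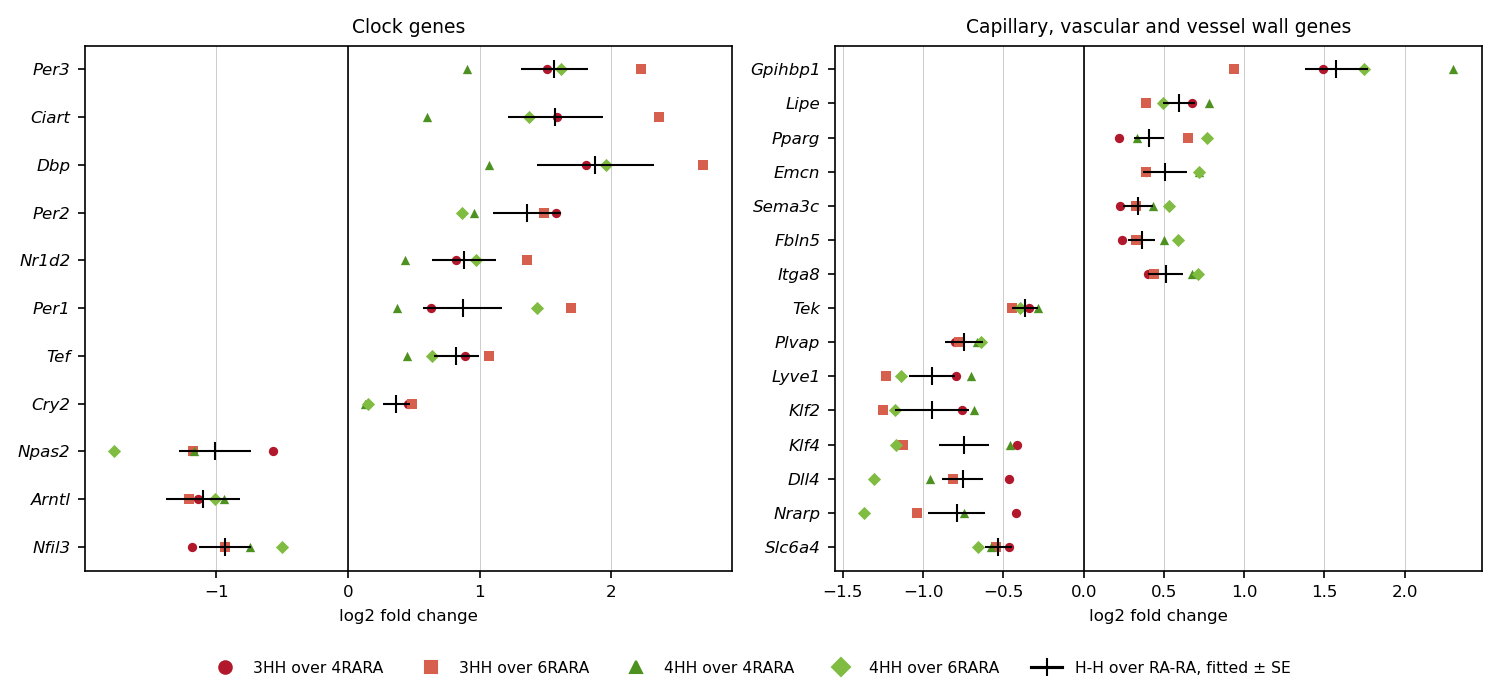
Log2 fold changes of clock genes (left) and of capillary, vascular and vessel wall genes (right); coloured symbols are the 4 litter pairs, and black bars are the fitted H-H over RA-RA value with its SE. Per3, Ciart, Dbp and Per2 lie right of 0 and Npas2, Arntl and Nfil3 left of 0 in all 4 pairs, as do Gpihbp1 (right) and Plvap, Lyve1, Klf2 and Slc6a4 (left).

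Endothelial genes changed in both directions while general endothelial markers did not pass. None of the 13 pan-endothelial markers was called in edgeR, 3 had an unadjusted p under 0.05, and DESeq2 called 1 lower (median −0.01). Pecam1, an adhesion molecule of endothelium, averaged 547 ± 80.1 CPM in H-H lungs and 550.3 ± 73.3 CPM in RA-RA lungs (SD, n = 12 and 13). Among genes of lipid uptake by capillaries, 3 of 12 rose, against 1.71% higher over all genes, and none fell. Gpihbp1, which carries lipoprotein lipase to the capillary surface, had 35.7, 81.9 and 168 CPM in H-H lungs (lowest, median and highest), against 13.5, 29.1 and 39.8 CPM in RA-RA lungs. In 11 of 12 H-H lungs it exceeded every RA-RA lung, and litter means were 64.8 CPM in 3HH and 114 CPM in 4HH, against 23.4 CPM in 4RARA and 33.9 CPM in 6RARA. Lipe, a hormone-sensitive lipase, rose by 0.59 and Pparg, a lipid-sensing receptor, by 0.41 (adjusted p = 1.94e-05, 0.000803 and 0.00947 for the 3 genes). The lipase gene Lpl and the fatty acid transporter gene Cd36 gave 0.08 ± 0.08 and 0.28 ± 0.13 (adjusted p = 0.617 and 0.237).

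Among 9 markers of general capillaries, Gpihbp1 and Sema3c rose and Plvap, Lyve1 and Tek fell, against 1.71% higher and 2.00% lower over all genes. Plvap, of the diaphragms that span capillary pores, had 266, 569 and 822 CPM in H-H lungs (lowest, median and highest), against 806, 995 and 1127 CPM in RA-RA lungs (−0.74 ± 0.12, SE, adjusted p = 0.000454). Its litter means were 565 CPM in 3HH and 617 CPM in 4HH, against 981 CPM in 4RARA and 977 CPM in 6RARA, close within each treatment. Lyve1, a hyaluronan receptor of lymphatic and some capillary endothelium, had litter means of 207 CPM in 3HH and 220.2 CPM in 4HH, against 358 CPM in 4RARA and 483 CPM in 6RARA (−0.95 ± 0.14, SE, adjusted p = 0.000196), whereas Prox1, which defines lymphatic endothelium, gave 0.24 ± 0.26 (adjusted p = 0.662). Tek, the angiopoietin receptor, gave −0.36 ± 0.08 (adjusted p = 0.00947). Sema3c, a guidance ligand, rose by 0.34 (adjusted p = 0.0411). Emcn, a sialomucin of capillaries, was the only one of 10 aerocyte markers to pass, at 0.51 ± 0.14 (adjusted p = 0.0328).

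Single Kruppel-like factor, Notch, arterial and venous genes were lower. Klf2 and Klf4, endothelial factors induced by shear stress, fell, against 2.00% lower over all genes, among 11 Kruppel-like factor genes, of which 6 had positive fitted values (list median 0.10). They had litter means of 50.1 CPM in 3HH and 52.5 CPM in 4HH, against 85.97 CPM in 4RARA and 117 CPM in 6RARA for Klf2 (−0.94 ± 0.23, adjusted p = 0.0174) and 109.7 CPM in 3HH and 106 CPM in 4HH, against 147 CPM in 4RARA and 238 CPM in 6RARA for Klf4 (−0.74 ± 0.15, adjusted p = 0.00528). Of 13 Notch genes 2 fell, against 2.00% lower over all genes: the arterial ligand gene Dll4 gave −0.75 ± 0.13 and the feedback target Nrarp −0.79 ± 0.18 (adjusted p = 0.000776 and 0.0102). Among arterial markers Gja5 also fell (−0.44 ± 0.12), and among venous markers Selp (−1.24 ± 0.36) and Cpe (−0.59 ± 0.17) fell (adjusted p = 0.0318, 0.0484 and 0.0445). In all, 2 of 9 arterial and 2 of 6 venous markers were called lower, against 2.00% over all genes. The other arterial marker called was Dll4, already counted among the Notch genes. Selp had litter means of 2.2 CPM in 3HH and 3.84 CPM in 4HH, against 6.53 CPM in 4RARA and 6.18 CPM in 6RARA. Cpe had litter means of 18.9 CPM in 3HH and 16.8 CPM in 4HH, against 20.1 CPM in 4RARA and 38.8 CPM in 6RARA, so its fall was large against 6RARA and small against 4RARA. Klf4 is also induced by handling of tissue, as are immediate early genes, of which 1 of 20 fell, Ier2 (−0.51 ± 0.13, adjusted p = 0.0257), with a median of −0.40 over the list. Of these 20 genes 16 had negative fitted values, 11 had an unadjusted p under 0.05, and DESeq2 called 4 lower. One room air library stood apart in stress-induced genes: 4RARA39 had 3703 CPM of Hspa1a, an inducible chaperone, against 5.32 to 39.9 CPM in the other 24 libraries, and the highest Dusp1, Fos, Ier2, Dll4 and Nrarp. Without 4RARA39 the log2 fold change was −0.69 for Dll4, −0.67 for Nrarp and −0.44 for Ier2 (adjusted p = 0.00134, 0.0178 and 0.0389). Klf2, Klf4, Gja5 and Cpe also passed without it, whereas Selp had an adjusted p of 0.0549. Nrarp lay at 19.65 to 39.72 CPM in H-H lungs, against 27.35 to 46.26 CPM in the other 4RARA lungs and 48.16 to 79.26 CPM in 6RARA. Its fall was thus larger against 6RARA, and the other 4RARA lungs overlapped the H-H lungs. The part of sampling in these falls was not tested.

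Of the vasoactive systems, the serotonin transporter gene Slc6a4, by which the lung takes serotonin from blood, was lower in every H-H lung, at 39.8, 53.2 and 62.02 CPM in H-H lungs (lowest, median and highest), against 63.3, 72.3 and 95.96 CPM in RA-RA lungs (−0.53 ± 0.08, SE, adjusted p = 0.000386). Its litter means were 53.8 CPM in 3HH and 49.7 CPM in 4HH, against 74.2 CPM in 4RARA and 78.9 CPM in 6RARA, and the log2 fold changes within batches were −0.49 in batch 1, −0.68 in batch 2 and −0.37 in batch 3. The other 6 serotonin genes did not pass, among them the receptor gene Htr2b (0.04 ± 0.12, adjusted p = 0.876) and the degrading enzyme gene Maoa (−0.20 ± 0.08, adjusted p = 0.151). Gucy1a3, a subunit of the nitric oxide receptor, rose by 0.40 (adjusted p = 0.0459) and was the only one of 15 endothelin and nitric oxide genes to pass. Nos3, the endothelial nitric oxide synthase, gave 0.03 ± 0.11 (adjusted p = 0.912), and the endothelin receptor gene Ednra −0.30 ± 0.11 (adjusted p = 0.147). None of 23 BMP and TGF-beta genes and none of 7 renin-angiotensin and natriuretic genes passed in edgeR. Unadjusted p was under 0.05 for 7 and 2 of them, and DESeq2 called 0 and 1.

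Genes of the vessel wall and matrix rose in small number. Itga8, an integrin of smooth muscle and myofibroblasts, had litter means of 342 CPM in 3HH and 414 CPM in 4HH, against 258 CPM in 4RARA and 252 CPM in 6RARA (0.51 ± 0.11, SE, adjusted p = 0.00592). Fbln5, which assembles elastic fibres, rose by 0.36 and Timp3, a matrix protease inhibitor, by 0.48 (adjusted p = 0.0131 and 0.0435), 2 of 23 matrix genes, against 1.71% higher over all genes. Timp3 lay at 687.1 to 1295 CPM in 3HH and 1205 to 1447 CPM in 4HH. It lay at 659.5 to 1210 CPM in 4RARA and 549.9 to 808.8 CPM in 6RARA, so 3HH and 4RARA overlapped widely. Dpt, a matrix protein of fibroblasts, rose by 0.37 (adjusted p = 0.0349), 1 of 12 fibroblast markers. Fzd1, a Wnt receptor, fell, 1 of 20 Wnt genes (−0.42 ± 0.11, adjusted p = 0.0271), against 2.00% lower over all genes. In the Wnt list 9 of 20 genes had an unadjusted p under 0.05, and DESeq2 called 2 lower. Eln, elastin itself, had litter means of 2066 CPM in 3HH and 3276 CPM in 4HH, against 2110 CPM in 4RARA and 4283 CPM in 6RARA and did not pass (−0.26 ± 0.23, adjusted p = 0.582). Among insulin-like growth factor genes, Igf2 rose (0.42 ± 0.10, adjusted p = 0.01304) and the binding protein gene Igfbp3 fell (−0.78 ± 0.20, adjusted p = 0.0198). The fall of Igfbp3 was large against 6RARA and small against 4RARA, with litter means of 36.7 CPM in 3HH and 34.7 CPM in 4HH, against 42.3 CPM in 4RARA and 93.3 CPM in 6RARA. Cyp26a1, which degrades retinoic acid, fell by 1.41 on the log2 scale (adjusted p = 0.007399) with litter means of 0.473 CPM in 3HH and 0.218 CPM in 4HH, against 0.8496 CPM in 4RARA and 1.32 CPM in 6RARA.

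Of 26 HIF target genes 1 rose and 1 fell, near the 1.71% and 2.00% over all genes, and their median was 0.04. Bnip3, of mitochondrial turnover, rose by 0.51 (adjusted p = 0.0418), with litter means of 41.4 CPM in 3HH and 33.3 CPM in 4HH, against 24.5 CPM in 4RARA and 31.2 CPM in 6RARA. Adm, the vasodilator adrenomedullin, had litter means of 5.47 CPM in 3HH and 7.17 CPM in 4HH, against 10.2 CPM in 4RARA and 12.3 CPM in 6RARA (−0.87 ± 0.24, adjusted p = 0.0365). Vegfa, the main endothelial growth factor, gave 0.08 ± 0.12 (adjusted p = 0.772), and Slc2a1, the glucose transporter of hypoxic cells, −0.19 ± 0.09 (adjusted p = 0.268). None of the 8 HIF subunit and oxygen sensor genes passed in edgeR or DESeq2 and 2 had an unadjusted p under 0.05, with Hif1a at 0.17 ± 0.08 (adjusted p = 0.248), Epas1 at 0.09 ± 0.18 (adjusted p = 0.833) and Hif3a at 1.18 ± 0.49 (adjusted p = 0.1896). Of 16 glycolysis genes Ldhb rose (0.30 ± 0.07, adjusted p = 0.0176). None of 26 respiratory chain, 19 fatty acid oxidation and 18 cholesterol synthesis genes was called in edgeR. In each of these lists 2 had an unadjusted p under 0.05, and DESeq2 called 0, 1 and 0. Gpx3, a secreted peroxidase, was the 1 of 19 antioxidant genes to rise (0.41 ± 0.12, adjusted p = 0.0449). Its litter means were 1032 CPM in 3HH and 1215 CPM in 4HH, against 695 CPM in 4RARA and 1018 CPM in 6RARA, so 3HH stood close to 6RARA.

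Marker genes of lymphoid cells were lower in H-H lungs, with counts that depended on litter. Of 13 markers of NK and cytotoxic cells 7 fell and none rose, against 2.00% lower over all genes, and their median was −0.69. The 4 litter pairs gave medians from −1.13 to 0.09. Prf1, the pore-forming protein of killer cells, had litter means of 20.9 CPM in 3HH and 34.1 CPM in 4HH, against 46.2 CPM in 4RARA and 34.5 CPM in 6RARA (−0.71 ± 0.17, adjusted p = 0.0156). Tbx21, a transcription factor of cytotoxic and helper cells, was lower in every litter pair, with litter means of 5.45 CPM in 3HH and 4.995 CPM in 4HH, against 8.57 CPM in 4RARA and 8.62 CPM in 6RARA (−0.70 ± 0.15, adjusted p = 0.00574). Gzmm, Gzmk, Nkg7, Il2rb and Klrb1a also fell. The summed level of the list averaged 99.3 CPM in 3HH and 146 CPM in 4HH, against 209 CPM in 4RARA and 139 CPM in 6RARA. The number called was 2 when 3HH was left out, 8 when 4HH was, 1 when 4RARA was and 9 when 6RARA was, and the median within batches was −0.63 in batch 1, −0.63 in batch 2 and −0.84 in batch 3.

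Of 11 B and plasma cell markers 5 fell, against 2.00% lower over all genes, and none rose (median −0.56), among them Pax5 and Pou2af1, transcription factors of the lineage, the surface marker Ms4a1, and the receptor subunit gene Cd79b. Pax5 had litter means of 4.21 CPM in 3HH and 3.42 CPM in 4HH, against 5.93 CPM in 4RARA and 10.5 CPM in 6RARA (−0.96 ± 0.23, adjusted p = 0.0159). Pou2af1 had litter means of 12.96 CPM in 3HH and 17.2 CPM in 4HH, against 23.4 CPM in 4RARA and 21.5 CPM in 6RARA (−0.65 ± 0.14, adjusted p = 0.006996). Spib, a factor of B cells and plasmacytoid cells named here because voom called it, had litter means of 17.9 CPM in 3HH and 19.2 CPM in 4HH, against 37.3 CPM in 4RARA and 30.3 CPM in 6RARA (−0.91 ± 0.11, adjusted p = 1.94e-05). The number of B cell markers called was 0 when 3HH was left out, 5 when 4HH was, 2 when 4RARA was and 6 when 6RARA was, and the median was −0.50 in batch 1, −0.68 in batch 2 and −0.33 in batch 3. Of 15 T cell markers, 4 of them with positive fitted values and with a list median of −0.18, Cd2 and Bcl11b fell, against 2.00% lower over all genes (−0.65 ± 0.16 and −0.51 ± 0.13, adjusted p = 0.02102 and 0.0247). Irf4, a factor of dendritic and lymphoid cells, was the 1 of 11 dendritic markers to fall (−0.87 ± 0.17, adjusted p = 0.00409). The T cell receptor subunit Cd3e gave 0.09 ± 0.15 (adjusted p = 0.779).

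Antigen presentation genes fell in both classes. Of 9 class II genes 5 fell, Cd74, RT1-Db1, RT1-DOb, RT1-Da and RT1-DOa, and of 13 class I genes 6 fell, RT1-M2, RT1-A1, RT1-A2, RT1-S3, Psmb8 and Psmb9, against 2.00% lower over all genes; none rose. The medians were −0.45 and −0.36. Cd74, the invariant chain of class II molecules, had 684, 1120 and 1347 CPM in H-H lungs (lowest, median and highest), against 1201, 1540 and 1703 CPM in RA-RA lungs (−0.48 ± 0.09, SE, adjusted p = 0.00203). RT1-M2 had litter means of 1.71 CPM in 3HH and 1.32 CPM in 4HH, against 3.58 CPM in 4RARA and 3.07 CPM in 6RARA and RT1-A1 had 172 CPM in 3HH and 179 CPM in 4HH, against 232 CPM in 4RARA and 273 CPM in 6RARA (adjusted p = 0.000107 and 0.00165). Called class II genes numbered 1 when 3HH was left out, 5 when 4HH was, 0 when 4RARA was and 7 when 6RARA was, and class I genes 2 when 3HH was left out, 6 when 4HH was, 4 when 4RARA was and 4 when 6RARA was. In the outbred strain the RT1 haplotypes of 4 families can differ and alter mapping to single RT1 genes, which was not tested. Within batches the class II median was −0.59 in batch 1, −0.35 in batch 2 and −0.21 in batch 3, and the class I median −0.55 in batch 1, −0.18 in batch 2 and −0.51 in batch 3.

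Of 31 chemokine and chemokine receptor genes 6 fell, against 2.00% lower over all genes, and none rose (median −0.54), among them the receptor genes Cxcr4, Cxcr6, Cxcr5 and Ccr6 and the ligand gene Ccl4. Cxcr4, the receptor of Cxcl12 on leukocytes and endothelium, had 55.7, 74.4 and 87.7 CPM in H-H lungs (lowest, median and highest), against 73.7, 111 and 134 CPM in RA-RA lungs (−0.55 ± 0.09, SE, adjusted p = 0.000618). The number called was 2 when 3HH was left out, 8 when 4HH was, 6 when 4RARA was and 9 when 6RARA was, and the median was −0.59 in batch 1, −0.41 in batch 2 and −0.44 in batch 3. Of 24 interferon-induced genes Ifit1 and Bst2 fell, against 2.00% lower over all genes (−2.66 ± 0.62 and −0.46 ± 0.12, adjusted p = 0.0131 and 0.0246). Ifit1 was high in 3 of 8 lungs of 4RARA (22.4 to 31.2 CPM) and at most 2.35 CPM in all other lungs of both treatments. Cd177, of neutrophils, was lower at 0.528, 2.36 and 7.05 CPM in H-H lungs (lowest, median and highest), against 3.02, 10.6 and 23.4 CPM in RA-RA lungs (−2.18 ± 0.34, SE, adjusted p = 0.000259), and the other 11 neutrophil markers did not pass.

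Among 11 mast cell markers 5 rose, against 1.71% higher over all genes, and none fell. Of the 11 fitted values 7 were positive and 4, those of Kit, Mcpt2, Hdc and Gata2, were negative, and DESeq2 called 5 higher and 1 lower. The median was 0.54, with litter pair medians of 0.23 to 0.84, while the summed level of the list averaged 351 CPM in 3HH and 352 CPM in 4HH, against 380.0 CPM in 4RARA and 406 CPM in 6RARA. Kit and Gata2 made up most of that sum, with medians of 195 and 119 CPM in H-H lungs, against 191 and 149 CPM in RA-RA lungs. Mcpt1l1 lay at 6.33, 10.1 and 21.5 CPM in H-H lungs (lowest, median and highest), against 1.72, 3.15 and 7.03 CPM in RA-RA lungs. The tryptase genes Tpsb2 and Tpsab1 rose by 0.99 and 0.90, the chymase gene Cma1 by 0.83 and the IgE receptor subunit Ms4a2 by 0.84 (adjusted p = 0.00388, 0.0335, 0.00928 and 0.009195). Cpa3, the mast cell carboxypeptidase, gave 0.54 ± 0.26 (adjusted p = 0.254) and Kit, the stem cell factor receptor that lung endothelium also expresses, −0.09 ± 0.13 (adjusted p = 0.752). The number called was 2 when 3HH was left out, 3 when 4HH was, 5 when 4RARA was and 4 when 6RARA was, and the median was 0.80 in batch 1, 0.26 in batch 2 and 0.61 in batch 3. Of 14 monocyte and macrophage markers 3 had positive and 11 negative fitted values, with a median of −0.17, and 8 had an unadjusted p under 0.05. The 2 that passed rose, Vsig4 and Cd163 of resident macrophages (0.75 ± 0.18 and 0.91 ± 0.25, adjusted p = 0.0163 and 0.0415).

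**Figure D4:**
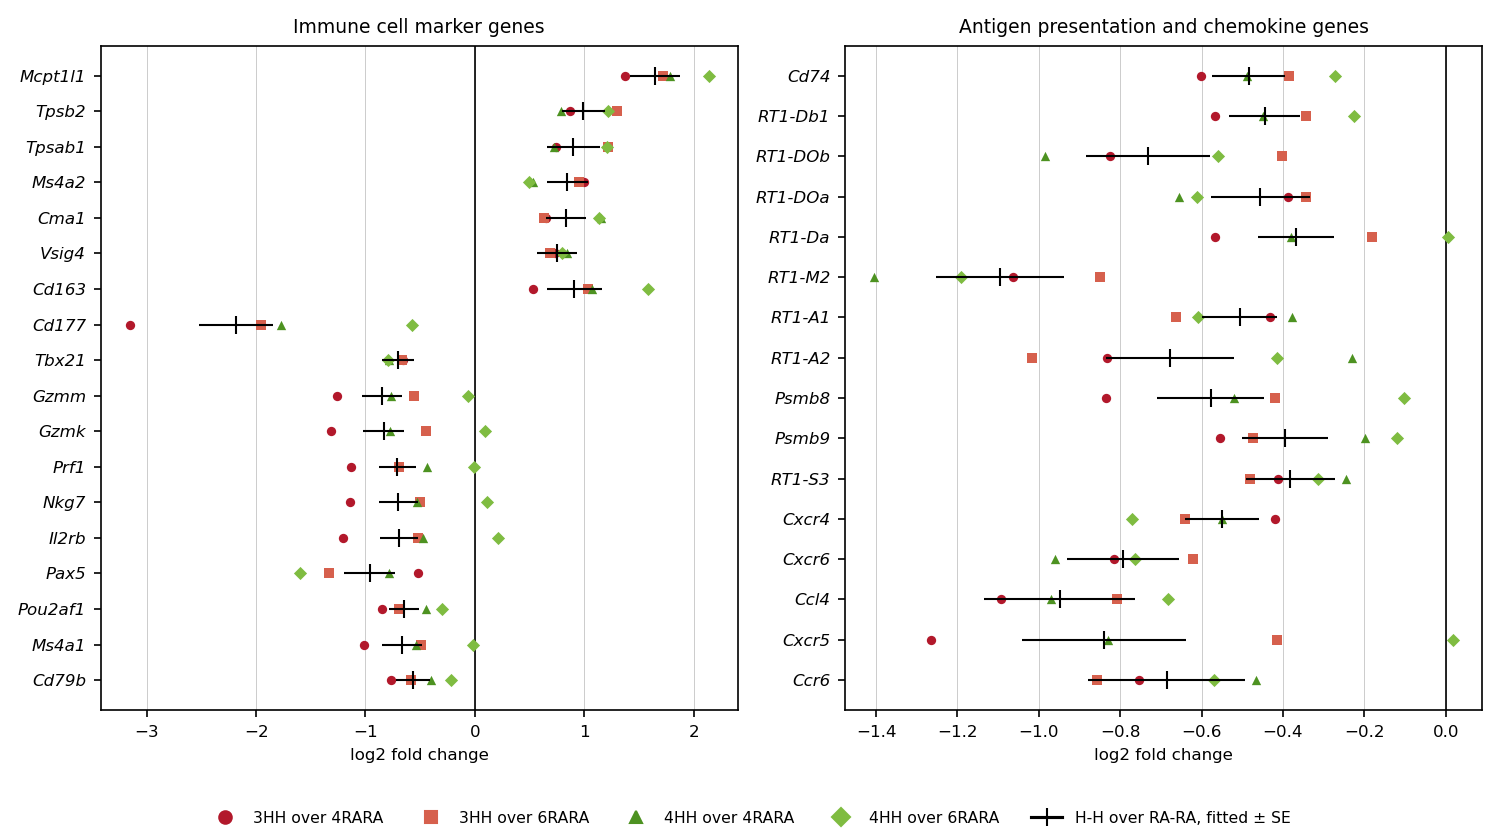
Log2 fold changes of immune cell marker genes (left) and of antigen presentation and chemokine genes (right); coloured symbols are the 4 litter pairs and black bars the fitted H-H over RA-RA value with its SE. The 5 mast cell genes lie right of 0 in all 4 pairs, and Il2rb, Nkg7, Gzmk, Cxcr5 and RT1-Da lie above 0 in the pair of 4HH over 6RARA.

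Cell cycle genes also differed by litter. Of 22 DNA replication genes 5 rose, the cyclins Ccne1 and Ccne2 and the origin factors Cdc6, Cdc45 and Mcm10, and of 21 mitosis genes Aurkb and Ccna2 rose, against 1.71% higher over all genes; all 22 and all 21 had positive fitted values. Aurkb was highest in 3HH, with litter means of 66.3 CPM in 3HH and 28.4 CPM in 4HH, against 16.9 CPM in 4RARA and 23.5 CPM in 6RARA, and was the 1 mitosis gene not called lower in 3HH than in 4HH. Ccne2 had litter means of 8.35 CPM in 3HH and 13.9 CPM in 4HH, against 5.49 CPM in 4RARA and 4.702 CPM in 6RARA (0.97 ± 0.20, adjusted p = 0.00476). The proliferation marker Mki67 had 75.1 CPM in 3HH and 198 CPM in 4HH, against 83.9 CPM in 4RARA and 53.7 CPM in 6RARA and did not pass (0.68 ± 0.24, adjusted p = 0.119). Between the H-H litters, 20 of 21 mitosis and 13 of 22 replication genes were called lower in 3HH than in 4HH, against 1.92% over all genes. Against 4RARA and 6RARA the mitosis median was −0.08 and 0.17 for 3HH, and 1.07 and 1.38 for 4HH. Called mitosis genes numbered 20 when 3HH was left out, 1 when 4HH was, 4 when 4RARA was and 1 when 6RARA was, and called replication genes 17 when 3HH was left out, 1 when 4HH was, 14 when 4RARA was and 1 when 6RARA was. Within batches the mitosis median was 0.71 in batch 1, 0.58 in batch 2 and −0.37 in batch 3, and the replication median 0.58 in batch 1, 0.29 in batch 2 and 0.03 in batch 3. Of 8 erythroid genes 0 were called against room air in edgeR, 0 in DESeq2 and 0 had an unadjusted p under 0.05, and 5 were called lower in 3HH than in 4HH.

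A few cardiac muscle genes, at low levels, were higher in H-H lungs. As background, rodent pulmonary veins carry a sleeve of cardiac muscle, so heart genes occur in clean lung, and how much vein a piece holds varies. Of 17 listed genes 14 were in the table and 13 were tested; Tcap, Ryr2 and Tnnt2 rose, against 1.71% higher over all genes, and none fell, and the median was 1.02. Tcap lay at 2.66, 5.69 and 13.7 CPM in H-H lungs (lowest, median and highest), against 0.296, 1.52 and 4.09 CPM in RA-RA lungs. Tnnt2, cardiac troponin T, had litter means of 14.8 CPM in 3HH and 10.5 CPM in 4HH, against 6.94 CPM in 4RARA and 5.11 CPM in 6RARA (1.10 ± 0.24, adjusted p = 0.00855). Myh6, the main heart myosin, lay at 2.23, 14.2 and 22.7 CPM in H-H lungs (lowest, median and highest), against 0.102, 3.28 and 14.3 CPM in RA-RA lungs and did not pass (1.35 ± 0.49, adjusted p = 0.128). The summed level of the list ranged from 44.9 to 159 CPM in H-H lungs, against 38 to 93.7 CPM in RA-RA lungs. Of the tested members, Myl7 was at 0 in 1 H-H and 5 RA-RA lungs, Csrp3 in 0 and 3 and Myl2 in 1 and 1, and no other was at 0 in any lung. Called cardiac genes numbered 0 when 3HH was left out, 3 when 4HH was, 6 when 4RARA was and 2 when 6RARA was, and the median was 1.37 in batch 1, 0.54 in batch 2 and 0.21 in batch 3. With all 29 libraries, among them the mixed lung 4HH37, the median was 2.80. The part of sampled vein in these values was not tested. Thymic and lymphoid markers included Rag1, a recombinase of developing lymphocytes, which rose by 1.64 (adjusted p = 0.0328) with one H-H lung at 13.2 CPM.

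Epithelial genes showed the contrast between the room air litters. Of 14 alveolar type 1 markers 0 passed in edgeR or DESeq2 and 1 had an unadjusted p under 0.05. Of 12 alveolar type 2 markers Sftpd, surfactant protein D, fell (−0.48 ± 0.12, adjusted p = 0.0175). Of these 12 type 2 markers 10 had negative fitted values, and 6 had an unadjusted p under 0.05. Their median was −0.29 for 3HH and −0.3 for 4HH against 4RARA, and −0.03 and 0.06 against 6RARA. Bpifb1 and Cldn10 fell among 8 secretory airway markers, against 2.00% lower over all genes, and the list median was 0.19 against 4RARA and −1.13 against 6RARA for 3HH and −0.17 and −1.39 for 4HH. Club cell secretoglobin, Scgb1a1, had litter means of 6516 CPM in 3HH and 5300 CPM in 4HH, against 5262 CPM in 4RARA and 13720 CPM in 6RARA and did not pass (−0.48 ± 0.24, adjusted p = 0.288). None of 12 ciliated markers passed against room air in edgeR or DESeq2 and 6 had an unadjusted p under 0.05, but all 12 were lower in 4RARA than in 6RARA (14.3% over all genes), and Foxj1, the master factor of cilia, had litter means of 42.9 CPM in 3HH and 31.02 CPM in 4HH, against 44.7 CPM in 4RARA and 89.9 CPM in 6RARA. Their fitted median of −0.42 in H-H over RA-RA lungs came to 0.04 without 6RARA.

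Litters of the same treatment also differed. Between 4RARA and 6RARA, 3489 of 12112 genes were called (28.8%), 1753 higher (14.5%) and 1736 lower (14.3%) in 4RARA, with a median absolute log2 fold change of 0.246. Between 3HH and 4HH, 358 genes were called (2.96%), 126 higher (1.04%) and 232 lower (1.92%) in 3HH, with a median of 0.153 in absolute value. The groups of litters are of different size, so the numbers of calls do not compare effect sizes. In 4RARA, 8 of 12 neutrophil and 7 of 13 NK and cytotoxic markers were higher and none lower than in 6RARA, and 11 of 22 DNA replication genes were higher. Ciliated and secretory airway genes were lower in 4RARA, 12 of 12 and 5 of 8. Intergenic and mitochondrial read shares also differed between these litters, with mitochondrial reads at 2.12 to 2.87% in 4RARA and 3.77 to 5.75% in 6RARA, and their part in the contrast was not tested.

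In edgeR the interaction of sex and treatment was called in 1 gene of 12112 (0.00826%), Slc30a3. This count was not stable: Slc30a3 was called in 11 of 25 fits that left out 1 library. With all 29 lung libraries 0 genes were called, and DESeq2 called 61. Fitted on one sex, 242 genes were called in males and 54 in females, and the interaction had an unadjusted p under 0.05 in 1320 genes.

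**Figure D5:**
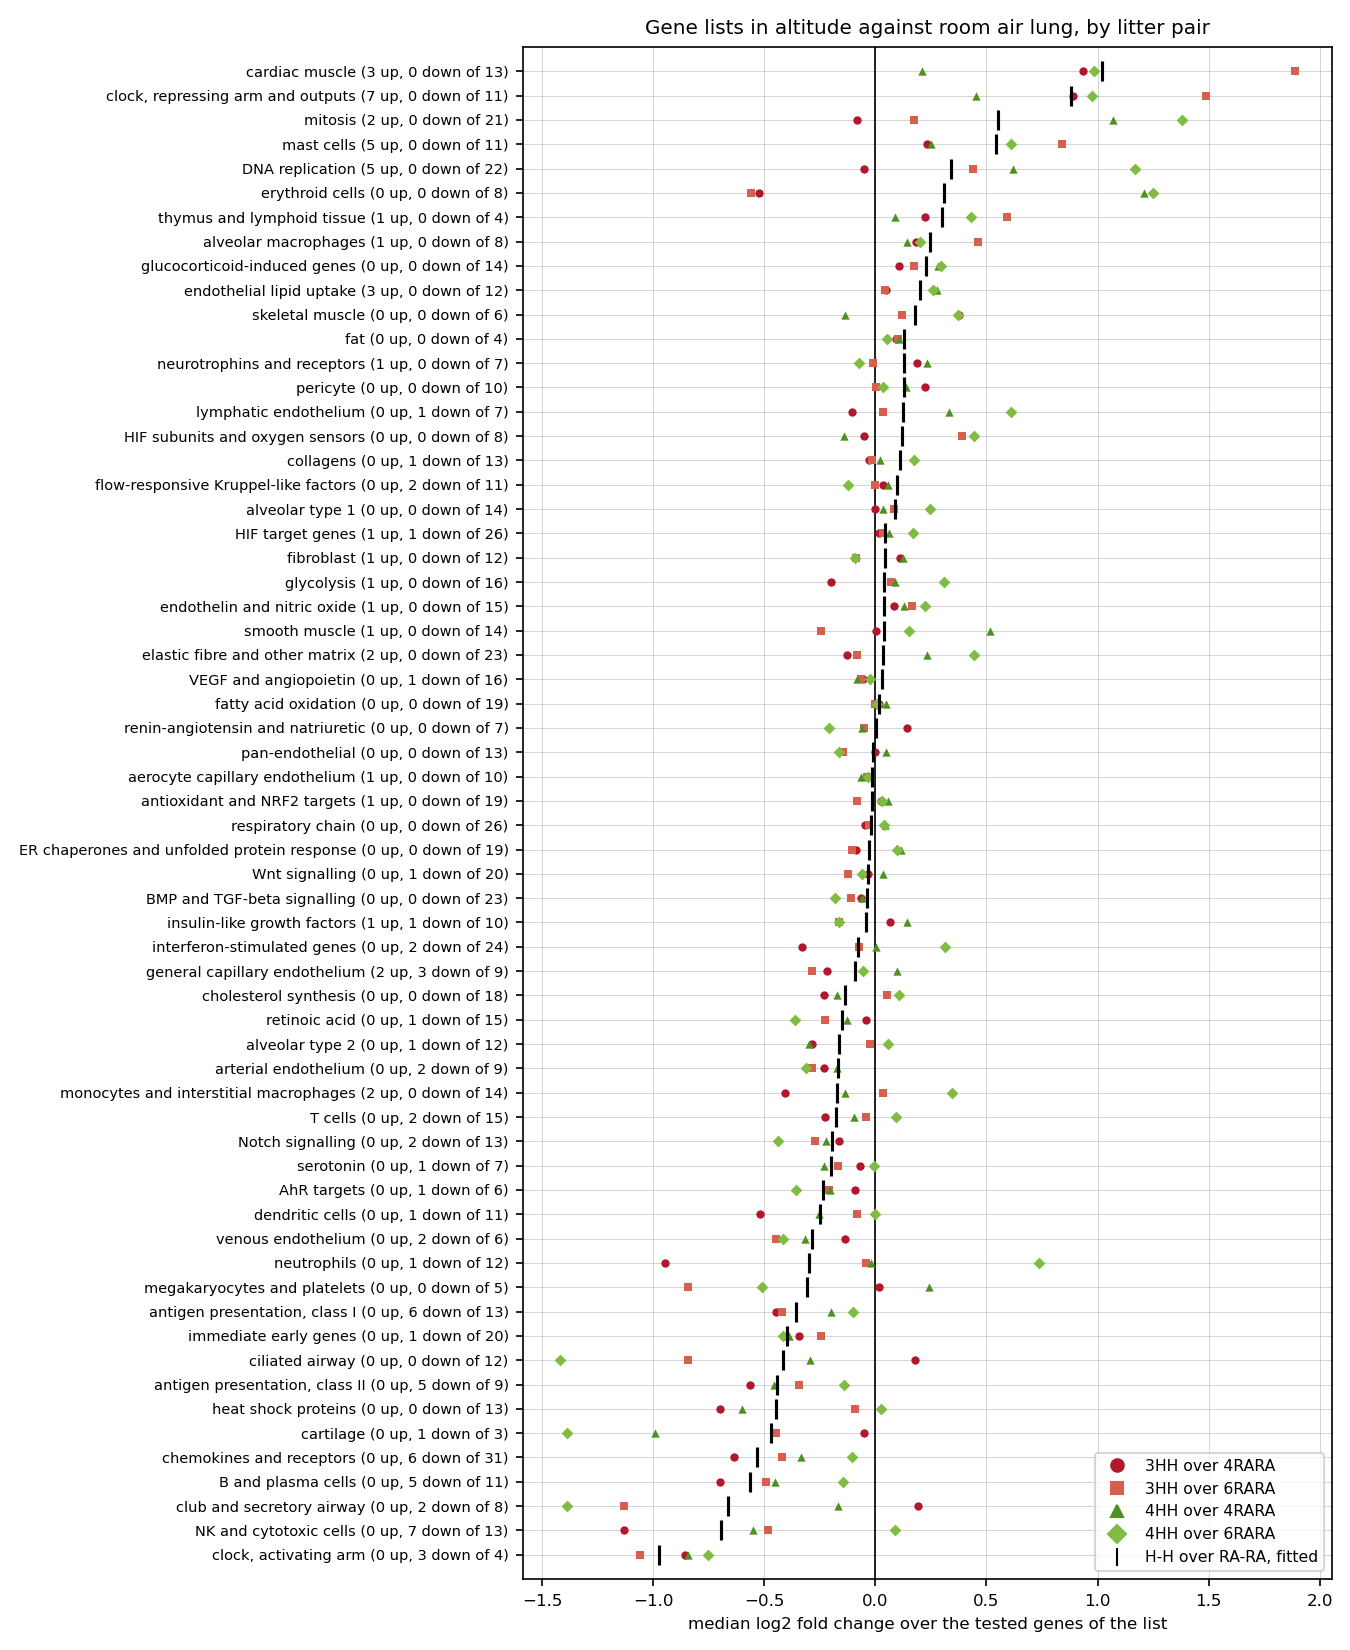
Median log2 fold change of each of 62 gene lists in H-H over RA-RA lung, ordered by the fitted median (black bars), with coloured symbols for the 4 litter pairs; row labels give how many tested genes were called higher and lower. The clock lists (the activating arm as drawn also holds Nfil3) and the mast cell list keep one sign in all 4 pairs. So do others, among them the lists of antigen presentation, chemokines, B and plasma cells, Notch signalling and cardiac muscle. The mitosis, erythroid, neutrophil and ciliated lists spread across 0.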

How the data were processed

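Per the labels' protocols, total RNA came from frozen lung, and KAPA mRNA HyperPrep libraries were sequenced. The raw counts per gene, the percentages of intergenic and mitochondrial reads, gene lengths and batch numbers were deposited by the authors. The submitters' processing notes name STAR 2.5, featureCounts 1.5.1 and edgeR, and the labels name the rn6 genome. Whether counting used strand is not given in the sources used here. The table held 12650 entries, 22 without a symbol. Genes passing filterByExpr (minimum count 10, minimum total 15) were tested with edgeR 4.0.16 (R 4.3.3): TMM scaling, robust quasi-likelihood fit, treatment plus sex, Benjamini-Hochberg adjustment. Levels are CPM with TMM library sizes. Alternatives used DESeq2 1.42.0 and limma 3.58.1. Littermates enter as separate animals, so p-values measure mostly the spread within litters. Named genes were the 15 in each direction, with a mean of at least 1 CPM and a gene symbol, whose smallest litter-pair change was largest, and in each list up to 6 called genes per direction, or the 2 with the lowest p where none was called; others were chosen after their values were seen, and a few that the rule would name are not reported here. The libraries and lists were chosen with earlier results of these data known. Promoter windows came from RefSeq and matched 155 of 207 higher, 169 of 242 lower and 9343 of 12112 tested genes.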

Additional observations from a re-analysis of the deposited data

Results flagged for a closer look

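The response to altitude differed between the sexes in Slc30a3, a zinc transporter gene, by the interaction term of edgeR's quasi-likelihood test. The log2 difference, male minus female, was 2.02 ± 0.34 (SE, adjusted p = 0.0448). Male lungs averaged 15.7 ± 8.62 CPM in H-H (SD, n = 6) and 7.57 ± 1.28 CPM in RA-RA (SD, n = 7). Female lungs averaged 7.35 ± 1.299 CPM in H-H (SD, n = 6) and 14.4 ± 3.17 CPM in RA-RA (SD, n = 6). Among the male H-H lungs, 3HH20 at 21.9 CPM and 4HH33 above it were the highest. In fits that left out 1 library the difference ran from 1.72 to 2.17, with adjusted p from 0.00254 to 0.129, and the gene was called in 11 of 25 of them. The adjusted p was 0.36 with all 29 lung libraries and 8.99e-05 by DESeq2.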

How the results depend on the processing

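Each treatment had 2 litters, and batch 3 held 1 H-H lung. Genes called against room air in edgeR numbered 449, and 448 with RLE size factors, 482 without a filter, 502 without the sex term, 416 with RNA integrity and 312 with batch as a covariate. They numbered 839 by DESeq2, 892 with the intergenic share (chosen after seeing the data), 242 with all 29 libraries, 1381 with litters weighted equally, 12 with litter as a random effect and 0 with summed litters. The fit with litters weighted equally held a mean for each litter. Its p-values therefore measure only the spread within litters and not that between them. Within batches 1, 2 and 3 they numbered 2, 7 and 0, and 2 within batch 3 without the sex term (chosen after seeing the data). Leaving out 3HH gave 455, 4HH 511, 4RARA 1887 and 6RARA 502, and single sexes gave 242 in males and 54 in females. Leaving out single libraries gave 353 to 631. The 94 genes beyond every litter pair became 82 to 123 without single libraries, 92 with RLE, 114 without a filter, 82 with all 29 libraries, 99 without the sex term and 130 by DESeq2. Between 3HH and 4HH DESeq2 called 699, RLE 367, no filter 368 and all 29 libraries 503. Between 4RARA and 6RARA these gave 3904, 3480, 3505 and 2550. The interaction gave 61 by DESeq2, 2 with RLE, 2 without a filter, 0 with all 29 libraries and 0 to 5 without single libraries (the last chosen after seeing the data). The causes of these moves were not tested.

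Within batch 3 the sex term set 1 female lung against 1. Of 129 called genes named, 26 had the opposite sign there, and 7 in the fit without the sex term, which set 1 lung against 5. With the sex term the reversed log2 fold changes were −0.301 in Fez1, −0.168 in Per2, 0.197 in Dpp6, 1.56 in Ucn3, −0.384 in Bnip3, −0.139 in Ldhb, −0.353 in Lipe, −0.031 in Igf2, −0.639 in Gpx3, −0.121 in Ccna2, −0.226 in Timp3, −0.374 in Dpt and −0.739 in Cd163. Lymphoid and antigen presentation genes that reversed there gave 0.0558 in RT1-Db1, 0.27 in RT1-DOb, 0.218 in RT1-Da, 0.274 in RT1-DOa, 0.165 in Psmb8, 0.0358 in RT1-A2, 0.313 in Cxcr6, 0.494 in Ccr6, 0.284 in Pou2af1, 0.835 in Ms4a1, 0.799 in Cd79b, 0.0642 in Nkg7 and 0.101 in Klrb1a. Without the sex term they were −0.367 in Fez1, −0.137 in Gpx3, −0.192 in Ccna2, −0.0013 in Cdc6, −0.197 in Timp3, −0.283 in Dpt and −0.204 in Cd163. Ifit1 gave 0.11 within batch 1, and Slc30a3 gave −0.945 in females only. No paired analysis was possible because the animal numbers identify single animals and pair none across treatments.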
